A study of Homo sapiens with 21 samples.

Results

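GSK4716 (5 μM) and diethylstilbestrol (DES, 10 μM), an agonist and an antagonist of the estrogen-related receptors, were compared directly with each other. The cells were MDA-MB-453, an established human breast cancer cell line of the luminal type that lacks estrogen receptor alpha. The comparison holds 6 of the 21 RNA-seq libraries of the series, the 3 treated with GSK4716 and the 3 treated with DES, each for 24 h. It covers the 14806 of 58735 genes whose FPKM (fragments scaled to gene length and to library size) averaged 0.5 or more across these 6 libraries. No control library entered the test, and the 3 libraries of the control, which received no treatment, were placed beside the result to show on which side of the control each ligand lay. All 9 libraries are labelled wild type. Both ligands were dissolved in ethanol. GSK4716 was given in serum-free medium, and the medium of the DES and control groups is not stated separately, so dose and medium cannot be told apart from the ligand. Nothing states that the 3 libraries of a group came from separate cultures, so the p-values measure the spread between these samples, which may be technical.

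The estrogen-related receptors ERRα, ERRβ and ERRγ, encoded by ESRRA, ESRRB and ESRRG, are orphan nuclear receptors that bind DNA without a known natural hormone and recruit coactivators such as the PGC-1 and SRC proteins. They are best known for driving the genes of mitochondrial respiration and fatty acid oxidation, and ESRRB is also part of the network that keeps embryonic stem cells pluripotent. GSK4716 is a synthetic ligand known to activate ERRβ and ERRγ. DES is a synthetic estrogen that binds the classical estrogen receptors and acts on all 3 ERRs as an antagonist.

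The 6 treated libraries held 15681802 to 24907094 fragments on genes. DES replicate 3 stood apart, with 35112 genes above 0 against 20363 to 28854 in the other 5. Its summed FPKM over 17 markers of blood, endothelial, stromal and other cell types was 34.3, against 9.9 to 17.9 in the other 8 libraries, and of these markers only COL1A1 passed the filter. Their part in the results below was not tested. The 3 DES libraries varied more than the others, with a median SD per gene of 0.355 on the log2 scale against 0.22 with GSK4716 and 0.216 in the control. Markers of a luminal breast line were present in every group. The mean FPKM of SPDEF was 378 with GSK4716 and 295 with DES, that of ERBB2 was 163 and 120, and that of KRT8 was 182 and 299.

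Of the 14806 genes tested, 5108 (34.5%) were differentially expressed between GSK4716 and DES at an adjusted p under 0.05. GSK4716 had the higher level for 2120 of them (14.3%) and DES for 2988 (20.2%), and 3260 (22.0%) also differed by at least 1 on the log2 scale. Of the genes tested, 1408 passed the filter on low values only through their DES values (735 called) and 663 only through GSK4716 (273 called). Over the other 12735 genes, 1847 were called higher with GSK4716 and 2253 with DES (median -0.04). At an unadjusted p under 0.05, 6878 of all genes tested (46.5%) differed. The number of 5108 moved by more than any scaling did when single libraries were left out or weighted, as given in the closing section. The libraries of both groups did not overlap for 51.2% of the genes tested. In the test of GSK4716 against DES the balance between both directions moved with the scaling of the libraries, as 2792 genes were higher with GSK4716 and 2357 with DES under quantile normalization, and 2597 and 2363 when libraries were scaled to their total fragments. The median log2 difference over all genes, GSK4716 minus DES, was -0.0996 as deposited and 0.0821 under quantile normalization, and small differences below are to be read against that shift. Against the control, DES gave 4527 called genes (30.6%, or 43.6% at an unadjusted p under 0.05) and GSK4716 gave 0 by limma, with 2410 (16.3%) at an unadjusted p under 0.05, 78 by limma-voom and 728 when libraries were weighted by their spread. In that weighting control replicate 1 had 8.83, against 0.687 and 0.418 for the other control libraries. The 728 thus lean on a single control library.

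**Figure D1:**
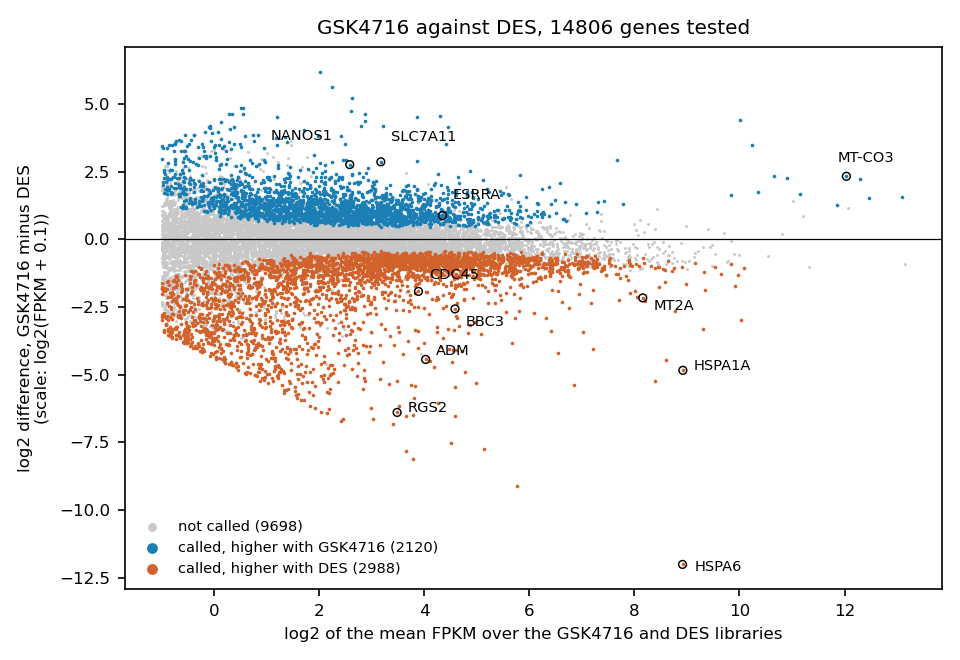
The log2 difference between GSK4716 and DES (vertical axis, on the log2(FPKM + 0.1) scale) is plotted for each of the 14806 genes tested against the log2 mean FPKM over both groups. Blue points are the 2120 genes called higher with GSK4716, orange points the 2988 called higher with DES and grey points the rest, and HSPA6 lies lowest at -12.01.

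The control libraries were then placed beside both ligands to ask whether agonist and antagonist moved genes to opposite sides. For 3435 of the 5108 called genes (67.2%) the control libraries overlapped those with GSK4716 and lay apart from those with DES, against 37.6% of all genes tested. The reverse, a control that overlapped DES and lay apart from GSK4716, held for 371 genes (7.26%, against 10.3%). The 3 control libraries lay wholly between both ligand groups for 752 called genes (14.7%, against 5.46%), 367 with GSK4716 above and DES below the control and 385 with DES above and GSK4716 below. Both ligand groups lay on one side of the control for 236 genes (4.62%, against 6.01%). The control overlapped both ligand groups for 314 called genes (6.15%), against 40.6% of all genes tested. Most called genes have separated ligand groups, which by itself lowers that share among them. It also makes a control in between, or overlapping a single ligand group, more frequent among them than among all genes. The contrasts with all genes tested are therefore not read as a result. Both distances are measured from the same 3 control libraries. The count of opposed genes was 1244 when control replicate 3 was left out and 496 among genes that also differed by at least 1 on the log2 scale. Over the called genes the median absolute log2 difference was 1.21 between the ligands, 1.06 between DES and control and 0.248 between GSK4716 and control. The control mean was nearer to GSK4716 than to DES for 4565 of the called genes (89.4%, against 75.8% of all genes tested).

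**Figure D2:**
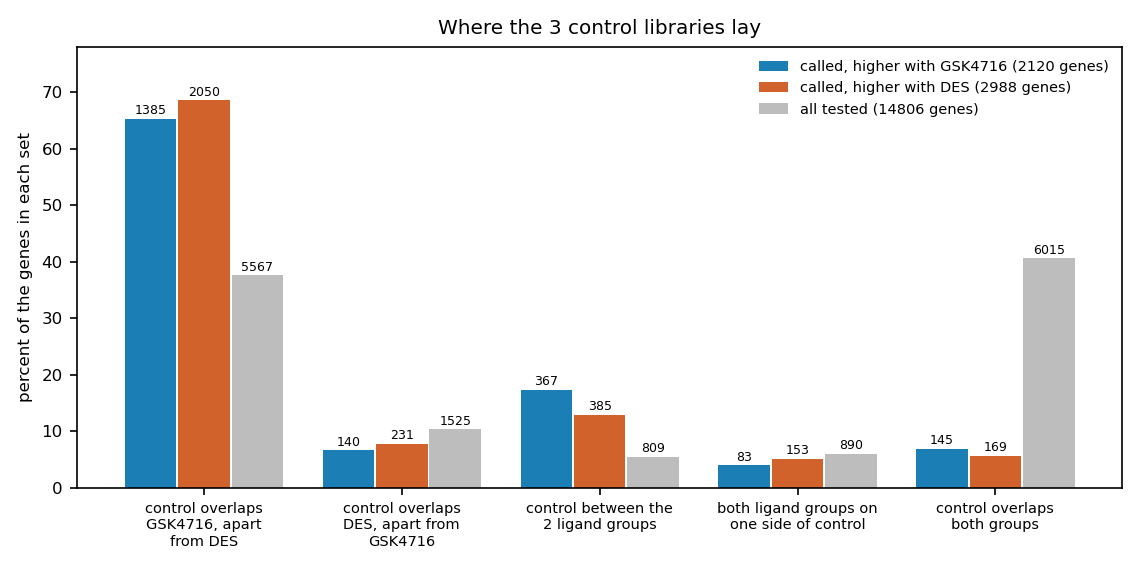
Bars give the percent of genes (vertical axis) in each placement of the 3 control libraries, for genes called higher with GSK4716 (blue), called higher with DES (orange) and all genes tested (grey), with the number of genes above each bar. The control overlapped GSK4716 and lay apart from DES for 65.3% of the genes called higher with GSK4716 and 68.6% of those called higher with DES.

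Among the receptors themselves, only ESRRA was expressed above the filter. ESRRA (ENSG00000173153, chromosome 11, 64305572 to 64316743 on GRCh38) was at 20.1, 33.5 and 25.7 FPKM with GSK4716, at 16.7, 10.4 and 15.9 with DES, and at 21.6, 23.3 and 31.2 in the control. The groups with GSK4716 and DES did not overlap, and the control overlapped GSK4716. The log2 difference was 0.88 ± 0.26 (SE, adjusted p = 0.0346), and the call for ESRRA in GSK4716 against DES was lost when any of DES replicate 2, DES replicate 3, GSK4716 replicate 2 or GSK4716 replicate 3 was left out (adjusted p = 0.0555 to 0.111). ESRRB, the receptor the study was about, was at 0.0286 to 0.0495 FPKM with GSK4716 and 0 to 0.0814 with DES, which was at most 8 fragments in a library, and a difference could not be detected at this depth. ESRRG was at 0.232 to 0.342 FPKM with GSK4716 and 0.0996 to 0.298 with DES, with overlapping groups.

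Of the 9 receptors and coregulators tested, 3 were called and all 3 were higher with GSK4716, with a median log2 difference of 0.63 over the list, against 14.3% of all genes called in that direction. The 9 genes are long, with a median exonic length of 8630 bases, and with a trend with gene length, described below, removed the median was 0.33, with 3 called higher with GSK4716 and 1 with DES. The number called was 2 without DES replicate 2, DES replicate 3, GSK4716 replicate 2 or GSK4716 replicate 3. Beside ESRRA these were the SRC-type coactivators NCOA2 and NCOA3. NCOA2 was at 8.68, 8.37 and 8.4 FPKM with GSK4716, 2.56, 3.59 and 3.35 with DES, and 8.19, 8.25 and 8.29 in the control, a log2 difference of 1.41 ± 0.18 (SE, adjusted p = 0.00222). NCOA3 differed by 1.18 ± 0.17 (SE, adjusted p = 0.003). For NCOA2 and NCOA3 the control values lay just under those with GSK4716 and far above those with DES. Of the genes the study measured by qPCR, KLF4 alone passed the filter. KLF4, a pluripotency factor, was at 8.5, 11.1 and 10 FPKM with GSK4716, at 9.19, 12.2 and 11.2 with DES and at 5.29, 3.95 and 7.53 in the control. The ligand groups overlapped (log2 difference -0.14 ± 0.18, adjusted p = 0.593), and both lay above the control. Against the control KLF4 was called with DES (log2 difference 0.99), though not under total fragment scaling. With GSK4716 it was not called (0.85). SOX2, NANOG, POU5F1, ESR1, IGF1, DPT, SFRP2 and PRL were at or under 0.521 FPKM in every treated library, too low to compare.

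The known metabolic targets of the ERRs held called members in both directions. Of 22 targets tested, 1 was called higher with GSK4716 and 6 with DES, against 14.3% and 20.2% of all genes, and the median log2 difference was -0.33. CPT1A, which brings long-chain fatty acids into mitochondria, was at 7.69, 17.2 and 12.6 FPKM with GSK4716 and 4.67, 2.99 and 4.97 with DES (1.5 ± 0.33, SE, adjusted p = 0.0125), with the control at 8.3 to 18.5. ATP5F1B, a subunit of ATP synthase, was at 326, 354 and 274 with GSK4716 and 771, 608 and 558 with DES (-1.02 ± 0.23, SE, adjusted p = 0.0139), and the control at 352 to 393 FPKM overlapped GSK4716. GLUL, glutamine synthetase, differed by -1.21 ± 0.18 (SE, adjusted p = 0.0036) and SDHB, a subunit of succinate dehydrogenase, by -0.83 ± 0.24 (SE, adjusted p = 0.0328). The count of 6 fell to 1 when DES replicate 2, GSK4716 replicate 1 or GSK4716 replicate 3 was left out, to 3 without GSK4716 replicate 2 or under median-ratio scaling, and to 1 when that trend with gene length was removed. Under quantile normalization 2 targets were called higher with GSK4716 and 1 with DES, with a median of -0.04.

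Transcripts of the mitochondrial genome itself went the other way. All 13 protein-coding transcripts had a higher level with GSK4716, 9 passed the test, against 14.3% of all genes called in that direction, and the median log2 difference was 1.55. MT-CO3, a subunit of cytochrome c oxidase, was at 6550, 9200 and 5070 FPKM with GSK4716, at 2210, 1300 and 844 with DES and at 7400, 7740 and 5980 in the control. The DES libraries lay below all 6 others, and the log2 difference was 2.32 ± 0.45 (SE, adjusted p = 0.00867). MT-ND6 differed by 2.32 ± 0.37 (SE), MT-ND1 by 2.26 ± 0.37 and MT-CO2 by 2.22 ± 0.42. Mitochondrial genes took 8.2% to 8.84% of the fragments with GSK4716, 7.7% to 8.19% in the control and 3.47% to 4.96% with DES. The number called was 2 without DES replicate 2 and 5 without any one of DES replicate 3 or the 3 GSK4716 libraries. The nuclear subunits of respiratory complex I, a family looked at after its values were seen, had 0 of 36 called higher with GSK4716 and 17 called higher with DES (median -0.71), against 14.3% and 20.2% of all genes. After removal of the gene length trend 6 of the 36 were called higher with DES, against 2154 of all 14806 genes in the test of GSK4716 against DES.

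Most heat shock genes tested were higher with DES. These genes encode chaperones that heat shock factor induces when proteins misfold. Of 24 tested, 21 were called higher with DES, against 20.2% of all genes, and 0 with GSK4716, and the median log2 difference was -1.82. HSPA6 and CRYAB passed the filter on low values only through their DES values, and of the other 22 members 19 were called higher with DES, with a median of -1.72. HSPA6 (ENSG00000173110, chromosome 1), a strictly inducible HSP70, was at 0.0715, 0.0238 and 0.442 FPKM with GSK4716, 0.248, 0.26 and 0.128 in the control, and 1260, 993 and 644 with DES. The GSK4716 and control libraries overlapped near the limit of detection, and the log2 difference from DES was -12.01 ± 0.53 (SE, adjusted p = 9.78e-05). HSPA1A and HSPA1B, which encode the same major inducible HSP70 and whose reads cannot be safely separated, were at 22.6 to 49.4 and 13.9 to 20.7 FPKM with GSK4716 against 858 to 993 and 580 to 761 with DES. CRYAB, a small heat shock protein, had a mean of 0.0648 FPKM with GSK4716 and 6.3 with DES (-5.3 ± 0.34, SE). DNAJB1, a co-chaperone of HSP70, had means of 31.5 and 742 FPKM, and HSP90AA1, the inducible HSP90, 233 and 1870. HSPB1 had means of 119 and 1150, and BAG3, which couples chaperones to autophagy, 30.9 and 185. The control lay with GSK4716 for 11 of the 21 called members and between both ligands for 9. HSPA1L, HSPA4 and DNAJB4 did not pass the test. The number called was 17 to 22 whichever of the 6 libraries was left out, and 21 after removal of the gene length trend.

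Promoters of 21 tested heat shock genes could be matched by symbol to RefSeq windows on GRCh38.p14 that run from 250 bases before to 50 after the start. A heat shock element, searched on both strands as 3 alternating GAA and TTC triplets with any pair of bases between neighbours, was found in 4 of the 21 (19.0%) and in 0.261% of the 9571 tested genes with a matched window. Sites are shown here for 3 genes called higher with DES, with the element in capitals, because 21 of the 24 heat shock genes tested were called in that direction. The HSPA6 site lies at chr1:161524458-161524486, those of HSPA8, a constitutive HSP70, at chr11:123062171-123062199 and chr11:123062346-123062374, and that of CHORDC1, an HSP90 partner, at chr11:90223084-90223112, where 3 matches overlap and the middle one is shown, each printed on the strand of its gene.
HSPA6: cggaaaggTTCGCGAAAGTTCgcggcggc
HSPA8, nearer the start: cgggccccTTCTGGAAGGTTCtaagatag
HSPA8, farther from the start: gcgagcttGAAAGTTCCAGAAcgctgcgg
CHORDC1: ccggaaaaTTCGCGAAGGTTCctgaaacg
The log2 difference was -1.66 for HSPA8 and -2.31 for CHORDC1, against -12.01 for HSPA6. The letters describe the windows only and are not a measurement of binding.

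The metallothioneins, small proteins that bind zinc, copper and cadmium and are induced by metals, also held members called higher with DES. Of 12 genes 4 passed the filter on low values and were called higher with DES, against 20.2% of all genes, but MT1E passed only through its DES values, so the share among these 4 is not given as support. With the filter taken over all 21 libraries 4 of 8 were called, with a median log2 difference of -1.16, and with no filter 4 of 11, with a median of -0.84. MT2A was at 86.3, 85.4 and 118 FPKM with GSK4716, 62, 24.1 and 92.7 in the control and 297, 336 and 792 with DES (-2.17 ± 0.38, SE, adjusted p = 0.00586). MT1X was at 0.445 to 0.924 FPKM with GSK4716 and 8.73 to 26.1 with DES, and MT1E at 0 to 0.798 and 9.9 to 23. MT1F was at 3.74 to 4.42 FPKM with GSK4716, above the control at 1.2 to 3.01 and below DES at 7.94 to 22.4. DES replicate 3 had the highest value of all 4 genes, and without it 4 were called. The call for MT1F was lost without any one of the GSK4716 libraries. These genes are near-identical in parts, so reads may be split among them. The core of the metal response element, TGCACNC or TGCGCNC on either strand, was in both matched windows (MT1X and MT2A) but also in 39.3% of the windows of tested genes. One copy of each is printed on the strand of its gene, with the core in capitals, from chr16:56682337-56682365 and chr16:56608519-56608547, since these were the only metallothioneins with a matched window.
MT1X: tcacgggttgcTGCACCCggcccaggatc
MT2A: ggcggggctttTGCACTCgtcccggctct

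Genes of growth arrest and cell death also held called members on the DES side. Of 19 p53 targets and inhibitors of cyclin-dependent kinases, 10 were called higher with DES and 0 with GSK4716 (median -0.78), against 20.2% and 14.3% of all genes. CDKN1C and PMAIP1 passed the filter only through their DES values, and of the other 17 genes 8 were called higher with DES. The 10 fell to 6 without GSK4716 replicate 2, and to 7 without GSK4716 replicate 1 or 3 or with the gene length trend removed. GADD45B, a stress sensor of the GADD45 family, was at 4.6, 5.48 and 6.1 FPKM with GSK4716, 3.39, 3.83 and 3.54 in the control and 56.4, 56.3 and 74.4 with DES (-3.5 ± 0.19, SE, adjusted p = 0.000138). GADD45G differed by -3.17 ± 0.18 (SE), and BBC3, which encodes the pro-apoptotic protein PUMA, by -2.57 ± 0.31. These 3 genes were above the control with both ligands, further with DES. PMAIP1, which encodes NOXA, had means of 0.252 and 1.78 FPKM, and CDKN2A means of 3.99 and 8.48. CDKN1C, the p57 gene, differed by -2.26. CDKN1A, the p21 gene and best known p53 target, did not pass the test (9.73 to 22.9 FPKM with GSK4716 and 13.7 to 35.9 with DES, adjusted p = 0.406), and MDM2 was not called.

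The immediate early genes, which respond within minutes to growth factors and stress, were called in both directions. Of 24 tested, 11 were called higher with DES and 4 with GSK4716, against 20.2% and 14.3% of all genes, and the numbers were 9 and 7 under quantile normalization. FOS was at 0.314, 0.435 and 0.842 FPKM with GSK4716, 0.392, 0.512 and 0.355 in the control and 19.9, 9.32 and 4.47 with DES (-4.0 ± 0.55, SE, adjusted p = 0.0025). IER5 was at 4.89, 3.91 and 4.98 FPKM with GSK4716, below the control at 5.81 to 7.56, and at 64.1, 47.1 and 45.2 with DES (-3.47 ± 0.2, SE). KLF10 differed by -2.92 ± 0.23 and NR4A2 by -2.73 ± 0.39, while JUN had means of 63.6 and 231 FPKM against 25.9 in the control. On the other side stood IER3, with means of 119 and 32.8 FPKM, DUSP6, a phosphatase that dampens ERK signaling, with 15.8 and 6.19, KLF6 and IER2. DUSP1, a phosphatase of stress kinases, was above the control with both ligands, at 18.2 to 31.3 FPKM with GSK4716 and 36.9 to 65.5 with DES against 2.39 to 10.5.

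**Figure D3:**
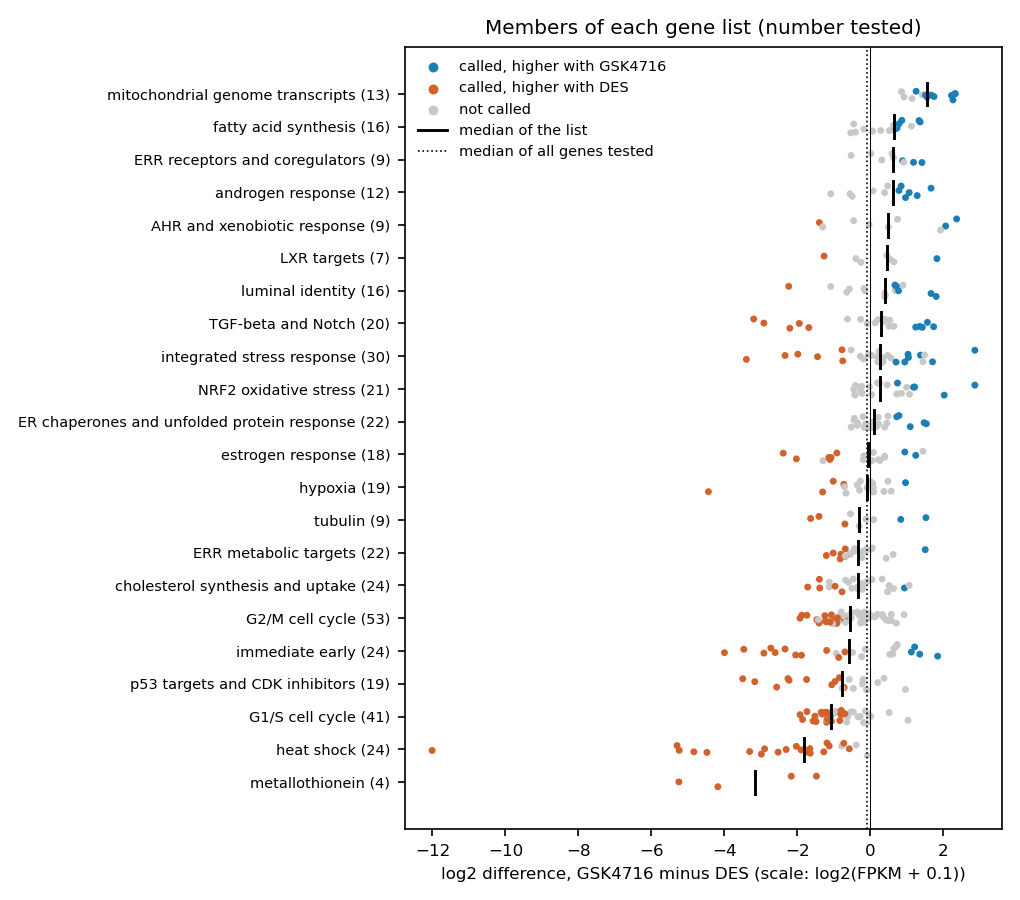
Each point is a tested member of a gene list, placed by its log2 difference between GSK4716 and DES (horizontal axis), in blue where called higher with GSK4716, orange where called higher with DES and grey where not called. Thick bars are medians over the tested members, highest at 1.55 for mitochondrial genome transcripts and lowest at -3.17 for the 4 metallothioneins. MT1E was tested only through its DES values, and without it the metallothionein median was -2.17. The other filters given in the text brought that median nearer to no difference. The dotted line is the median of all genes tested, -0.10.

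Among the genes of DNA replication called between the ligands, the control mostly stood with DES. Of 41 genes of the G1/S transition and DNA replication, 25 were called lower with GSK4716 than with DES and 0 higher, against 20.2% and 14.3% of all genes, with a median log2 difference of -1.07, and for 22 of the 25 the control libraries overlapped DES and lay apart from GSK4716. CDC45, a part of the replicative helicase, was at 6.95, 6.49 and 4.97 FPKM with GSK4716, 24.8, 19.9 and 25.9 with DES, and 19, 32.1 and 14.9 in the control (-1.93 ± 0.19, SE, adjusted p = 0.000956). MCM2, another part of that helicase, was at 7.89, 12.1 and 7.94 with GSK4716, 32.2, 24.8 and 25.5 with DES and 30.6, 42.8 and 20.6 in the control (-1.57 ± 0.22, SE, adjusted p = 0.00267). The GSK4716 libraries lay below all 6 others for both genes. RPA2, a single-strand binding protein, differed by -1.86 ± 0.21 (SE) and RFC2, a subunit of the clamp loader, by -1.74 ± 0.24. RRM2, which makes deoxynucleotides, had means of 11.1 and 27.8 FPKM. None of these was called between GSK4716 and control, where CDC45 differed by -1.77 and MCM2 by -1.71, while the control libraries themselves ranged widely, with list medians from -0.45 to 0.46 about their mean. Of all 41 genes, 8 were called between DES and control (median -0.37) and 0 between GSK4716 and control (median -1.18). The list median was -1.30 to -1.11 in the GSK4716 libraries and -0.46 to -0.18 in the DES libraries. Leaving out any of the 6 libraries gave 21 to 25 genes called lower with GSK4716, removal of the gene length trend 23, and a fit with all 7 groups of the series gave 5.

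PCNA was an exception, with means of 59.1 FPKM with GSK4716, 66.5 with DES and 134 in the control. UHRF1, a partner of DNA methylation maintenance, was below the control with both ligands, at 8.1 to 11 FPKM with GSK4716 and 12.7 to 15.8 with DES against 21 to 42.8. Of 53 genes of G2 and mitosis 14 were called lower with GSK4716 and 0 higher (median -0.57), against 20.2% and 14.3% of all genes. The control stood with DES for 2 of these 14, with GSK4716 for 3 and between both ligands for 3. UBE2C, which works with the anaphase-promoting complex, was at 43.1, 25.1 and 44.8 FPKM with GSK4716, 141, 121 and 143 with DES and 56.5, 74.4 and 51.4 in the control (-1.88 ± 0.25, SE, adjusted p = 0.00226). PRC1, a spindle midzone protein that passed the filter only through its DES values, differed by -1.93, AURKB, the mitotic kinase Aurora B, differed by -1.74 ± 0.35 and CKS1B, a subunit of cyclin-dependent kinases, by -1.47 ± 0.18. GSK4716 replicate 2 had the lowest G2/M list median of the 9 libraries, -1.27 against -0.30 and 0.00 in the other GSK4716 libraries, and without it the list median was -0.10 with 9 called lower and 1 higher. Without DES replicate 2 the number called lower was 8, under quantile normalization 9, and in a fit with all 7 groups of the series 3.

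**Figure D4:**
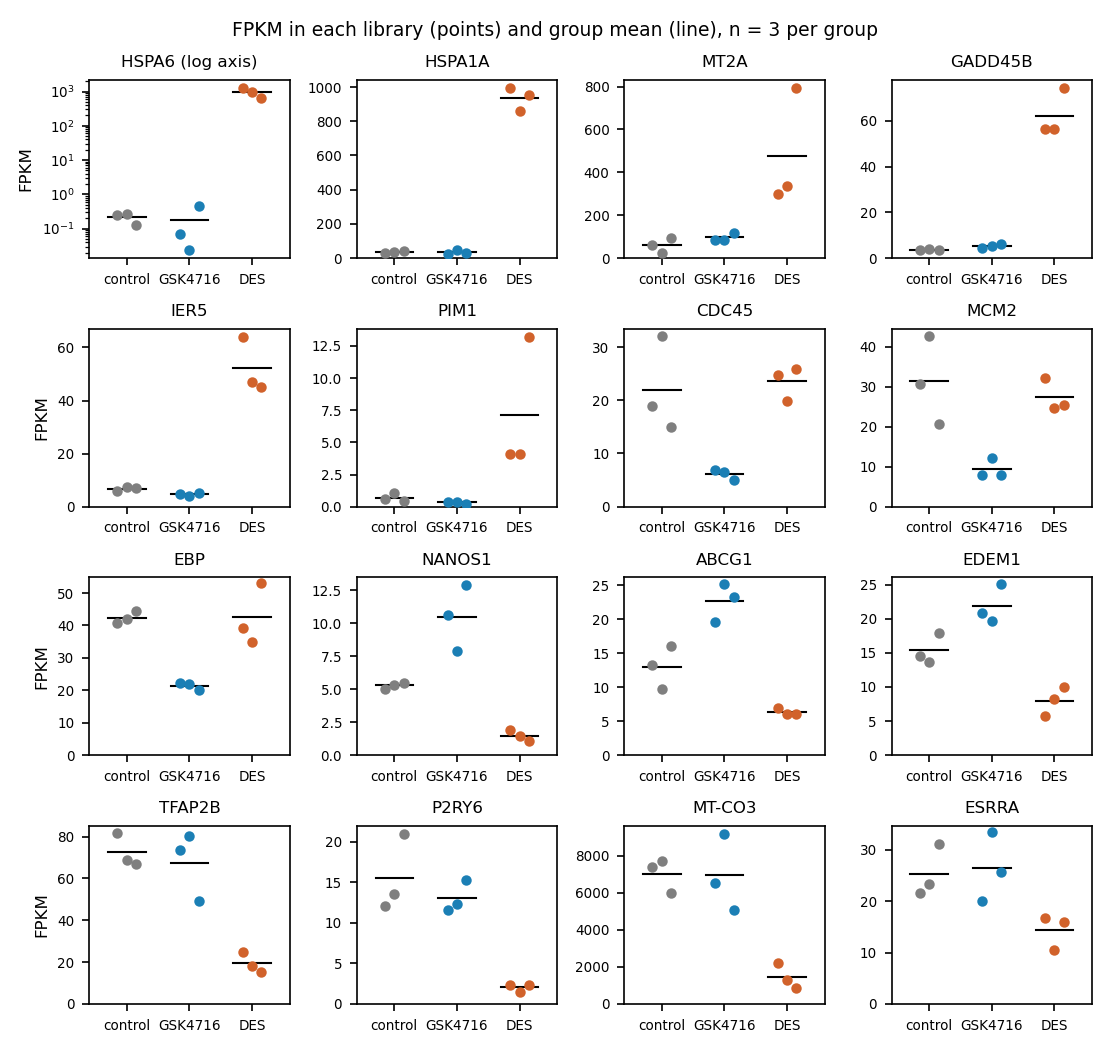
FPKM (vertical axes, linear from 0 except for HSPA6, which has a log axis) of 16 genes in each library (points) with the group mean (line), for control, GSK4716 and DES (n = 3 each). GSK4716 stands with the control for HSPA6, HSPA1A and P2RY6, DES stands with the control for CDC45, MCM2 and EBP, and the control lies between the ligands for NANOS1, ABCG1, EDEM1, IER5 and PIM1.

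Among lipid genes, those of cholesterol synthesis and uptake held 5 of 24 called lower with GSK4716 and 1 higher (median -0.35), against 20.2% and 14.3% of all genes. Without DES replicate 1 these numbers were 8 and 3 (median -0.59), without DES replicate 3 they were 5 and 3 (median -0.07), without GSK4716 replicate 3 they were 3 and 0, and under quantile normalization 5 and 4 (median -0.15). EBP, a sterol isomerase, was at 22.2, 21.9 and 20 FPKM with GSK4716, 39.3, 34.9 and 53.2 with DES and 40.9, 42 and 44.4 in the control (-0.97 ± 0.19, SE, adjusted p = 0.00927), and ACAT2, the cytosolic thiolase, was at 3.88 to 7.13 FPKM with GSK4716, 9.48 to 17.9 with DES and 13 to 14.4 in the control. For both genes and MSMO1 the control stood with DES. FDFT1, squalene synthase, was opposed around the control, at 24.1 to 31.4 FPKM with GSK4716, 41.4 to 52.1 in the control and 79.3 to 118 with DES (-1.72 ± 0.21, SE). SREBF2, the master regulator of the pathway, had means of 96.9 and 52.0 FPKM and was the member called higher with GSK4716. Of 16 fatty acid synthesis genes 6 were called higher with GSK4716 and 0 with DES (median 0.63), against 14.3% and 20.2% of all genes, and 4 of the 10 not called had a negative log2 difference. These genes are long, with a median exonic length of 7270 bases, and with the gene length trend removed 4 were called and the median was 0.34. The fatty acid elongase gene ELOVL6 was at 4.69 to 5.16 FPKM with GSK4716, 1.45 to 2.88 with DES and 7.22 to 8.48 in the control, below the control with both ligands, and ACSL1, an acyl-CoA synthetase, was at 73.2 to 86.4, 35.8 to 57.2 and 48.9 to 65.4. The number called fell to 2 without DES replicate 2 or GSK4716 replicate 2 and to 3 without GSK4716 replicate 1 or 3. ABCG1, a sterol exporter and target of the oxysterol receptor LXR, was at 19.6, 25.2 and 23.3 FPKM with GSK4716, 13.2, 9.67 and 16 in the control and 6.96, 6.01 and 6.05 with DES (1.82 ± 0.17, SE, adjusted p = 0.000726). MYLIP, another LXR target, was opposite in direction (-1.27 ± 0.22, SE), at 11.9 to 13.9 FPKM with GSK4716 and 23.3 to 40.9 with DES against 7.93 to 8.63 in the control.

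Genes of the androgen and estrogen responses were compared because DES is an estrogen and the line is of the luminal type. Of 12 genes of the androgen response, 6 were called higher with GSK4716 and 0 with DES (median 0.62), against 14.3% and 20.2% of all genes. These genes are long, with a median exonic length of 6200 bases against 3870 over all genes tested. Calls of long genes leaned to GSK4716, as described below. PMEPA1 differed by 1.28 ± 0.25 (SE), SLC45A3 by 1.06 ± 0.22 and ELL2 by 0.96 ± 0.16, and in all 3 the control overlapped GSK4716. FKBP5, PIP and TSC22D3, which are also androgen targets, had log2 differences of -0.5, -1.09 and -0.56 and were not called. Of 16 luminal identity genes 5 were called higher with GSK4716 and 1 with DES (median 0.40), against the same shares. These numbers were 3 and 1 without GSK4716 replicate 2, 4 and 3 without DES replicate 3, and 10 and 1 under quantile normalization (median 0.98). TFAP2B was at 73.4, 80.1 and 49 FPKM with GSK4716, 24.9, 18 and 15.2 with DES and 67 to 81.8 in the control (1.8 ± 0.26, SE, adjusted p = 0.00294), while ELF3, an epithelial factor, was at 6.39 to 11.2 with GSK4716 and 35.1 to 55.6 with DES (-2.24 ± 0.27, SE). ESR1, the estrogen receptor alpha gene, was at or under 0.0305 FPKM in every treated library. Of 18 estrogen response genes 2 were called higher with GSK4716 and 6 with DES (median -0.07), against 14.3% and 20.2% of all genes. The 6 fell to 3 without DES replicate 2 or GSK4716 replicate 3 and to 4 without GSK4716 replicate 1, the numbers under quantile normalization were 5 and 6, and the sign of the median turned under quantile normalization (0.29), scaling to total fragments (0.08) and without GSK4716 replicate 1 (0.02). AREG, an EGF receptor ligand, was at 0.549 to 0.815 FPKM with GSK4716 and 2.15 to 8.83 with DES, FKBP4, which is also in the heat shock list, at 45.6 to 48.6 and 144 to 245, and CCND1 had means of 76.8 and 169. ABCA3 differed by 1.24 and IGFBP4 by -1.14. Of 9 tubulin genes 2 were called higher with GSK4716 and 3 with DES, TUBA1C and TUBD1 in one direction and TUBA4A, TUBB2A and TUBG1 in the other, against 14.3% and 20.2% of all genes. The 2 fell to 1 without DES replicate 2, DES replicate 3, GSK4716 replicate 1 or GSK4716 replicate 3, and the 3 were 2 without DES replicate 2, GSK4716 replicate 1 or GSK4716 replicate 2.

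The next lists hold the stress programs that start from the endoplasmic reticulum and from oxidants. In the integrated stress response, which runs through ATF4, 7 of 30 genes were called higher with GSK4716 and 6 with DES (median 0.27), against 14.3% and 20.2% of all genes. SLC7A11, the cystine importer, was at 15.2, 5.06 and 28 FPKM with GSK4716, 3.54, 2.26 and 8.82 in the control and 0.83, 3.14 and 1.83 with DES (2.86 ± 0.66, SE, adjusted p = 0.0154), a call that was lost without GSK4716 replicate 1 or 3. SLC3A2, the partner chain of that transporter, was at 77.9 to 127 FPKM with GSK4716 and 336 to 442 with DES (-1.99 ± 0.24, SE). PPP1R15A, which encodes the phosphatase subunit GADD34, was at 13.5, 11.3 and 19.6 with GSK4716, 4.56, 5.22 and 9.31 in the control and 180, 163 and 124 with DES (-3.4 ± 0.25, SE, adjusted p = 0.000334). ATF4 itself had means of 300 FPKM with GSK4716 and 312 with DES against 167 in the control, and DDIT3 of 46.8 and 54.1 against 11.5, and neither was called between the ligands. The number called higher with GSK4716 was 1 without GSK4716 replicate 1 or 3, 3 without DES replicate 2, 4 without DES replicate 3 and 9 without GSK4716 replicate 2, and the number called higher with DES was 3 without DES replicate 2, GSK4716 replicate 1 or GSK4716 replicate 2.

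The C/EBP-ATF response element to which ATF4 binds, searched as TGATGNAA on both strands, was in 8 of 26 matched windows of the integrated stress response list (30.8%) and in 1.55% of those of all tested genes. The upstream sites of 3 members called between the ligands are printed on the strand of the gene, with the element in capitals, because they belong to genes called in opposite directions. ASNS, asparagine synthetase (chr7:97872458-97872487), and ATF3 (chr1:212565205-212565234) were higher with DES, and AARS, alanyl-tRNA synthetase (chr16:70289675-70289704), was higher with GSK4716.
ASNS: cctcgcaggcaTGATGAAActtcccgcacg
ATF3: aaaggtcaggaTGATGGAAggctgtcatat
AARS: ttttctcgcagTTGCATCAgccaagttaga
ASNS differed by -1.45 on the log2 scale, ATF3 by -2.34 and AARS by 1.03.

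Of 22 genes of the unfolded protein response, 5 were called higher with GSK4716 and 0 with DES (median 0.11, which turned to -0.12 without DES replicate 3), against 14.3% and 20.2% of all genes, and the 5 were 3 without GSK4716 replicate 1 or 2 and 8 under quantile normalization. EDEM1, which sends misfolded glycoproteins to degradation, was at 20.9, 19.7 and 25.1 FPKM with GSK4716, 14.6, 13.7 and 17.9 in the control and 5.72, 8.25 and 9.99 with DES (1.47 ± 0.23, SE, adjusted p = 0.00384). SEL1L, of the same degradation pathway, differed by 1.53 ± 0.26 and EIF2AK3, the stress sensor PERK, by 1.09 ± 0.23. EDEM3, outside the list but among the largest differences, was at 10.1 to 13.6 FPKM with GSK4716, 7.58 to 8.44 in the control and 1.04 to 2.93 with DES. HSPA5, the main chaperone of the endoplasmic reticulum, was not called (240 and 351 FPKM, against 125 in the control). Of 21 NRF2 targets 5 were called higher with GSK4716 and 0 with DES (median 0.25), against 14.3% and 20.2% of all genes. The number called was 2 without GSK4716 replicate 1 or 3, and 3 without DES replicate 3 or with the gene length trend removed. It was 8 under total fragment scaling and 10 under quantile normalization (median 0.61). Without GSK4716 replicate 3 the median was -0.02. The control libraries alone had list medians from -0.51 to 0.80 about their mean. OSGIN1 was at 16.7, 18.3 and 27.3 FPKM with GSK4716 and 6.67, 4.29 and 4.2 with DES (2.02 ± 0.26, SE, adjusted p = 0.00214), with the control spread from 6.77 to 21.5. HMOX1, the classical target, had means of 418 and 133 FPKM but was not called (adjusted p = 0.597). Among targets of the aryl hydrocarbon receptor, CYP1B1 was at 80.7, 89.1 and 113 FPKM with GSK4716, 19, 27.1 and 11.5 with DES and 58.3 to 107 in the control (2.36 ± 0.31, SE, adjusted p = 0.00225), CYP1A1 was at 105 to 221, 15.8 to 62.5 and 29 to 212, and TIPARP was higher with DES (-1.4 ± 0.3, SE). Of 19 hypoxia genes 1 was called higher with GSK4716 and 4 with DES, against 14.3% and 20.2% of all genes, and the 4 fell to 1 without GSK4716 replicate 3 and to 2 without DES replicate 3 or GSK4716 replicate 2. ADM, adrenomedullin, was at 1.29, 0.995 and 1.82 FPKM with GSK4716, 0.364, 0.296 and 0.49 in the control and 31.5, 26 and 36.1 with DES (-4.44 ± 0.25, SE, adjusted p = 0.00014). CA9, a defining hypoxia gene, differed by 0.09 and was not called.

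Genes of the TGF-β and Notch pathways held called members in both directions. Of 20 tested, 5 were called in each direction, against 14.3% of all genes called higher with GSK4716 and 20.2% with DES. The receptors NOTCH2 and NOTCH3, with means of 21.4 and 35.3 FPKM with GSK4716 and 8.11 and 10.7 with DES, the receptor TGFBR1, the signal transducer SMAD3 and the Notch target HES1 were higher with GSK4716. The Notch ligands DLL1 and DLL4 and the BMP targets ID1 and ID3 were higher with DES, as was CYR61. DLL4 was at 1.04 to 1.48 FPKM with GSK4716, 0.418 to 0.737 in the control and 7.51 to 13.6 with DES (-2.92 ± 0.26, SE), and ID3 at 4.14 to 5.44 with GSK4716 and 32.2 to 55.7 with DES (-3.2 ± 0.24, SE).

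The genes that lay furthest on opposite sides of the control, chosen by the smaller of both distances, were led in the agonist direction by LRRC31, NANOS1 and ZNF404. NANOS1, a translational repressor of germ cells, was at 10.6, 7.88 and 12.9 FPKM with GSK4716, 5.05, 5.36 and 5.5 in the control and 1.91, 1.44 and 1.07 with DES (2.75 ± 0.27, SE, adjusted p = 0.000935). LRRC31 was at 42.3, 45.6 and 35.2 FPKM with GSK4716, 21.3, 13.9 and 26 in the control and 11.6, 11 and 6.69 with DES (2.09 ± 0.24, SE). The other genes named by this rule were ZNF404, SLFN5, ABCG1 and AC240274.1, which lies on a contig outside the assembled chromosomes. In the other direction stood PIM1, a survival kinase, at 0.361, 0.397 and 0.226 FPKM with GSK4716, 0.634, 1.05 and 0.447 in the control and 4.11, 4.09 and 13.2 with DES (-3.87 ± 0.48, SE, adjusted p = 0.00184). MICB, a stress ligand for natural killer cells, was at 1.47 to 1.99 FPKM with GSK4716, 3.03 to 3.2 in the control and 6.57 to 12.7 with DES, and the chromatin kinase gene VRK1 was at 6.98 to 8.53, 9.51 to 17.3 and 19.6 to 23.3. TMSB15A, HIST1H2AJ and DPF1 completed this set. With GSK4716 none of these genes was called against the control, at log2 differences from -0.88 to 1.07, so each is opposed by the order of its libraries and not by 2 passed tests. PIM1 and HIST1H2AJ passed the filter on low values only through their DES values and ZNF404 only through its GSK4716 values.

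The genes furthest to the same side were DUSP1, ATF3 and BBC3 above the control and ADORA1, UHRF1 and SLFN13 below it. ATF3, a stress-induced transcription factor, was at 7.89, 5.42 and 11.6 FPKM with GSK4716, 1.78, 1.3 and 2.67 in the control and 31.8, 41.2 and 50.4 with DES. ADORA1, an adenosine receptor, was at 2.78, 3.17 and 4.41 with GSK4716, 7.9, 23.4 and 9.85 in the control and 1.96, 1.75 and 2 with DES. The 3 genes above the control were higher with DES than with GSK4716, with log2 differences of -1.2 to -2.57.

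Beyond the lists, the 10 largest differences in each direction were taken among protein-coding genes that averaged 1 FPKM or more. Those higher with GSK4716 differed by 2.42 to 3.02 on the log2 scale and those higher with DES by -5.24 to -12.01. For 8 of the 10 higher with DES the mean with GSK4716 was under 0.5 FPKM, and for 4 of the 10 higher with GSK4716 the mean with DES was, so these genes passed the filter on low values only through the group where they were high. Their sizes also depend on the 0.1 added before the log, and the ranges are not compared. P2RY6, a nucleotide receptor, was at 11.6, 12.3 and 15.3 FPKM with GSK4716, 12.1, 13.6 and 21 in the control and 2.35, 1.44 and 2.37 with DES (2.64 ± 0.24, SE, adjusted p = 0.000719). IGIP was at 1.59 to 2.38 FPKM with GSK4716, 1.26 to 1.58 in the control and 0.0926 to 0.192 with DES, and PUDP, a pseudouridine phosphatase, at 3.81 to 5.8, 3.65 to 5.96 and 0.556 to 0.865. IGSF22, ZCCHC24, LRRIQ4 and PDIK1L had the same direction. RGS2, a brake on G protein signaling and one of those 8 genes, was at 0.189, 0.188 and 0.12 FPKM with GSK4716, 0.103, 0.316 and 0.0289 in the control and 20.9, 21.2 and 24.4 with DES (-6.4 ± 0.21, SE, adjusted p = 1.98e-05). HES7, a clock gene of somite formation, was at 0.271 to 0.899 FPKM with GSK4716 and 23.4 to 58.2 with DES. OMP, the olfactory marker protein, held 3 or fewer fragments in each GSK4716 library and was at least 51.6-fold higher with DES, and the histone genes HIST1H2AL and HIST1H2AJ were at least 22.1-fold and 20.5-fold higher, each set against a floor of 3 fragments per library. RNF103-CHMP3, a readthrough of a pair of neighbouring genes, was at 0.112 to 0.279 FPKM with GSK4716 and 17.3 to 28.1 with DES, and its reads cannot be told apart from those of the genes it spans. The sources describe a stranded and an unstranded library protocol without saying which was used, so any gene that overlaps another is uncertain in the same way.

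Gene length moved with the comparison of GSK4716 against DES. The genes tested were split by exonic length into 5 classes of near-equal size, and the class with the shortest had 30.5% called higher with DES and 7.66% higher with GSK4716, and the class with the longest had 5.98% and 25.0%. The median log2 difference ran from -0.88 in the shortest class to 0.32 in the longest. The DES libraries had medians from the control of 0.55, 0.84 and 1.10 in the shortest class and -0.45, -0.22 and -0.20 in the longest, while GSK4716 stayed within -0.05 to 0.04 in all classes. When the trend was removed, a step chosen after the values were seen, 2157 genes were called higher with GSK4716 and 2154 with DES, and 3525 of the 5108 genes were among them. The part of gene length in the results above was not tested.

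**Figure D5:**
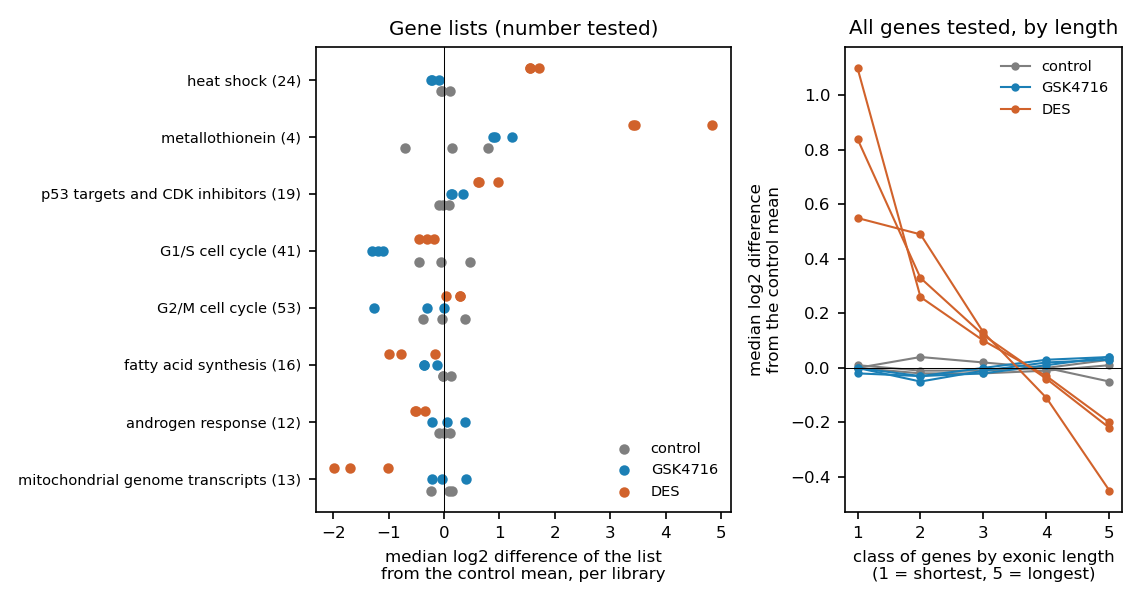
Left, the median log2 difference from the control mean over the tested members of 8 gene lists (horizontal axis), with a point for each library. Right, the same median over all genes tested, by exonic length class (1 shortest, 5 longest), with a line for each library. The DES libraries stand at 1.55 to 1.71 for heat shock genes and fall with gene length, while the GSK4716 libraries stand lowest for G1/S genes, at -1.30 to -1.11.

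Several large families were looked at after their values were seen, and their counts stand against 20.2% of all genes called higher with DES and 14.3% with GSK4716. The median exonic length was 603 bases for the histone genes and 2540 to 3550 for the other families of the next sentence, against 3870 over all genes tested. Of 52 replication-dependent histone genes 39 were called higher with DES and 1 with GSK4716 (median -2.17), of 80 cytosolic ribosomal protein genes 38 and 0, of 77 mitochondrial ribosomal protein genes 35 and 2, of 37 proteasome subunits 15 and 0, and of 18 small nucleolar RNA host genes 15 and 0. With the length trend removed these counts higher with DES were 22, 14, 20, 9 and 9, against 2154 of all 14806 genes in GSK4716 against DES. The histone genes HIST1H2AL and HIST1H2AJ passed the filter on low values only through their DES values. Over all genes tested, 735 of the 1408 genes that passed only in that way were called. Such members were not counted by family, so the histone share is not given as support. HIST1H1D, a linker histone, was at 1.01 to 2.63 FPKM with GSK4716, 0.782 to 1.91 in the control and 51 to 78.9 with DES. Histone messages lack a poly-A tail when processed normally, and libraries made from poly-A RNA count only those that carry one. Of 376 zinc finger ZNF genes 74 were called higher with GSK4716 and 35 with DES (median 0.38), against 14.3% and 20.2% of all genes, and these numbers were 74 and 33 with the trend removed.

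The ERR response element, searched as TNAAGGTCA on both strands, was rare on both sides. It was in 11 of 1462 matched windows of genes called higher with GSK4716 (0.752%) and 12 of 1713 of genes called higher with DES (0.701%), against 45 of 9571 tested genes (0.47%). Among genes opposed around the control it was in 3 of 265 with GSK4716 above and DES below and in 0 of 277 with the reverse. The full estrogen response element, GGTCA and TGACC with any 3 bases between them, was in 1 window of the tested genes, of a gene called higher with DES. These windows reach only 250 bases before the start, and elements farther away were not searched.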

How the data were processed

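RNA-seq libraries of MDA-MB-453 cells were prepared from poly-A RNA. For each gene the authors deposited the FPKM in every library beside its length and position, and the submitters' processing notes name HISAT2 2.0.5, featureCounts 1.5.0-p3 and GRCh38.p14. FPKM multiplied by gene length gave whole fragments for 100% of values (tolerance 0.01), from which depth was read. Alternatives were other scalings, filters, pseudocounts, fits with more groups, limma-voom on the fragments, array weights, a replicate block, each library left out and, chosen after the data were seen, removal of a gene length trend.

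GSK4716 and DES, and each with control, were compared by limma 3.58.1 (lmFit, eBayes with trend) in R 4.3.3 on log2(FPKM + 0.1), in the 14806 genes that averaged 0.5 FPKM or more across the 6 treated libraries, so fold changes of low genes are understated. P-values are two-sided and Benjamini-Hochberg adjusted over all genes tested (threshold 0.05). An exact permutation test of 3 against 3 cannot go below 0.1 and was not used. A group with 3 or fewer fragments in each library was taken as at the limit of detection. The members and gene lists were chosen with earlier results of these data known. Named genes are the 10 largest differences in each direction, the 6 most opposed in each direction, the 3 furthest to the same side above and below control, the receptors and qPCR genes, and up to 4 called members of each list. DNAJB1, HSP90AA1, HSPB1, BAG3, HSPA8, CHORDC1, PMAIP1, CDKN2A, CDKN1A, MDM2, JUN, IER2, IER3, DUSP6, KLF6, RRM2, PCNA, SREBF2, CCND1, ATF4, DDIT3, ASNS, AARS, HSPA5, HMOX1, CA9 and other list members outside that rule were chosen after their values were seen.

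In data simulated for this comparison (14806 genes) the test recovered 29 of 312 genes changed 2-fold (9.3%). It recovered 149 of 288 genes changed 4-fold (51.7%), and 4.81% of its calls were false. The simulation changed far fewer genes than the 5108 called between GSK4716 and DES. Its recovery rates therefore do not carry over to the real comparison. Promoter windows were RefSeq's on GRCh38.p14, and 9571 of the 14806 genes matched by symbol. Values of some single genes are not reported here. No explanation of any difference was tested.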

Additional observations from a re-analysis of the deposited data

How the results depend on the processing

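The numbers called were 5108 for GSK4716 against DES, 0 for GSK4716 against control and 4527 for DES against control. Weighting libraries by their spread (arrayWeights) gave 8542, 728 and 10433, and limma-voom gave 78 for GSK4716 against control. With each library left out in turn the ranges were 2884 to 5797, 0 to 1 and 2154 to 5372, lowest without GSK4716 replicate 3 for the ligands and without control replicate 1 for DES, and 3086, 3110 and 3262 for the ligands without GSK4716 replicate 1, GSK4716 replicate 2 and DES replicate 2. With a log2 difference of at least 1 also required the numbers were 3260 for the ligands and 2871 for DES. The opposed genes, 752 as reported, were 670 to 1244 with a library left out and 496 with the size requirement, and the genes on one side of control, 236 as reported, were 140 to 558, 135 with the size requirement and 485 with arrayWeights. The split of calls, higher with GSK4716 and with DES, was 2120 and 2988 as deposited, 2254 and 2655 under median-ratio scaling, 2597 and 2363 under total fragment scaling and 2792 and 2357 under quantile normalization. KLF4, not called between the ligands in any of these, turned from -0.14 to 0.02 under total fragment scaling and 0.01 with the length trend removed. Of 111 named genes called, 86 were called whichever library was left out and 85 under every other alternative, and none of the 111 changed sign.

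Equal replicate numbers do not pair the libraries of GSK4716 and DES, as the correlations of their deviations were -0.03, -0.081 and 0.1253 for replicates 1 to 3. GSK4716 replicates 1 and 2 correlated best with a DES library of another number (0.1014 and 0.1135). Between GSK4716 and control the correlations were 0.1304, -0.0281 and 0.168. There replicates 1 and 3 correlated best with the control library of their own number. A fit with the replicate block gave 4141 calls for GSK4716 against DES, 0 for GSK4716 against control and 3402 for DES against control. Under the block ESRRA, ADORA1, SLFN13, UHRF1, PRC1 and PDK1 were no longer called. Depth limits what can be said of ESRRB, ESRRG and the qPCR genes other than KLF4. The cause of these shifts was not tested.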
